A study of Mus musculus with 5 samples.

Results

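The ADAMTS genes *Adamts1*, *Adamts2*, *Adamts5*, *Adamts6* and *Adamts9* were followed in bone marrow-derived dendritic cells (BMDCs) that overexpress *Irf8*. They are the 5 genes of this family among 1355 genes in the authors' table of differentially expressed genes. Every gene of that table had been selected by the authors on its adjusted p-value, with a threshold of 0.05, and on a log2 difference above 1 in size in the same 5 samples. The difference between groups therefore chose these genes, and it is given below as a description. No p-value is given for them, and a count of those past a threshold supports nothing. The 1355 genes are those that passed, so a family member outside the table was not analysed here.

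The series compared BMDCs of 3 *Irf8*-OE samples with those of 2 control samples by poly-A RNA-seq, and the question was how *Irf8*, a transcription factor of the dendritic cell lineage, alters gene expression in these cells. The *Irf8*-OE mice were *Irf8* CAG-LSL *Itgax* Cre animals, in which Cre under the *Itgax* (CD11c) promoter removes a stop cassette before a tagged *Irf8* gene. The controls carry the genotype *Irf8* CAG-LSL in the study's text and wild type in the sample labels. The mice were C57BL/6, were 8 weeks old and were labelled male. Marrow of both groups was cultured with 5 ng/ml GM-CSF and 200 ng/ml Flt3L, which are growth factors for myeloid and dendritic cells. The non-adherent cells were replated on day 9 and collected on days 15 to 16. The labels also give stimulation with TNF-alpha in both groups, for which a dose of 20 ng/ml is named. No source used here says that the samples came from separate mice, so the spread between them may be technical.

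ADAMTS proteins are secreted zinc metalloproteases that carry thrombospondin repeats and cut proteins of the extracellular matrix. *Adamts1*, *Adamts5* and *Adamts9* encode proteases of the large proteoglycans aggrecan and versican, and *Adamts5* is a main aggrecanase of cartilage. *Adamts2* encodes a procollagen N-proteinase, which trims the amino end of fibrillar procollagens before fibrils form. *Adamts6* encodes a protease linked to fibrillin microfibrils. In immune tissue such proteases are known from stromal and endothelial cells and from macrophages.

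Values are normalized counts, which are reads divided by 1 size factor per sample. The 1355 listed genes held between 646123 and 1062127 reads per sample, a count that covers only this table and not whole libraries. *Irf8* itself had control values of 2835 and 2747 normalized counts, and its *Irf8*-OE values were 7141, 6519 and 6021. The sex-linked genes went against the label male in 1 group. *Ddx3y*, *Eif2s3y*, *Kdm5d* and *Uty* of the Y chromosome had control means of 511 to 1377 normalized counts, whereas each *Irf8*-OE library held 0 reads of them. *Xist*, the RNA of the inactive X chromosome, averaged 12437 ± 1457 normalized counts in *Irf8*-OE (SD, n = 3) and 0.562 ± 0.795 in the controls (SD, n = 2). Every difference below therefore lies between groups that differ in these genes as well as in *Irf8*, and the parts of sex and genotype cannot be told apart.

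Start-site sequences are shown for the genes with an entry in the RefSeq promoter table, which covers 3 of the 5 genes, namely *Adamts1*, *Adamts2* and *Adamts9*. They let the 2 directions of change be set beside the bases at which transcription starts. Each runs 5′ to 3′ on the strand of the gene, from 250 bases before the start to 50 bases after it, in GRCm38.p6. *Adamts1* lies at chr16:85803064-85803363 on the minus strand, *Adamts2* at chr11:50601835-50602134 on the plus strand, and *Adamts9* at chr6:92943485-92943784 on the minus strand. For *Adamts9* the start used lies upstream of the GENCODE gene, whose 5′ end at 92943492 falls near the 3′ end of the window. Capitals mark the letters TATAAA of a TATA box, the letters GGGCGG of a GC box and the letters GAAA of an IRF core. Each was searched on both strands, and a match on the other strand is shown as its reverse complement.
Adamts1: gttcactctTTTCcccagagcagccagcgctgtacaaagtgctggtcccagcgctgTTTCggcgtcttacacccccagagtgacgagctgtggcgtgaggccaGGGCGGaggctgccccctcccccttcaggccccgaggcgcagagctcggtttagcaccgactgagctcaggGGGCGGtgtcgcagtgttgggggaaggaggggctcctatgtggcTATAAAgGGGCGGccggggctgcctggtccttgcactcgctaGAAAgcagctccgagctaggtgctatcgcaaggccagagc
Adamts2: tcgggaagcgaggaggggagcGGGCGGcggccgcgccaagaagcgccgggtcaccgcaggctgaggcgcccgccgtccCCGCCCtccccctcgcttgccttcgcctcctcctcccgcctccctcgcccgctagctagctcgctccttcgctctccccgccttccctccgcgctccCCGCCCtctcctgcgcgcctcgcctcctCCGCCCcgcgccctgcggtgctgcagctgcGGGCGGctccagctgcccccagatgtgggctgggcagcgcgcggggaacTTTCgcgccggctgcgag
Adamts9: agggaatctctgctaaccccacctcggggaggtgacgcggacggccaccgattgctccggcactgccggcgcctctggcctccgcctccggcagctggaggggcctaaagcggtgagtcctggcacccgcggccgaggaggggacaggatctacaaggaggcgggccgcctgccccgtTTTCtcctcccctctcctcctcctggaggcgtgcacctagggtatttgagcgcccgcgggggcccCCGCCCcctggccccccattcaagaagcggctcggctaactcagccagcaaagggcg
TATAAA, the core of a TATA box, was found in the window of *Adamts1* alone, at positions -32 to -27 with the start base as 0, and in 13.6% of 32851 mouse promoter windows of the same length. GGGCGG, the core of a GC box, occurred at 3 sites in *Adamts1*, 5 sites in *Adamts2* and 1 site in *Adamts9*, and 35.7% of all windows held it. GAAA, the short core that IRF proteins recognise, was in all 3 windows and in 89.2% of all windows. GGAA, the core of sites for Ets proteins, was likewise in all 3 windows and in 96.0% of all, and in *Adamts1* 1 GGAA overlapped a GAAA on the same strand. The pair GAAA, any 2 bases, GAAA was in 0 of the 3 windows and in 3.44% of all windows. The composite GGAA, any 2 bases, GAAA was in 0 of the 3 and in 2.72% of all, and TGANTCA, the letters of an AP-1 site, was in 0 of the 3 and in 7.81% of all. All 3 windows were rich in G and C, with 64.7% in *Adamts1*, 77.3% in *Adamts2* and 70.0% in *Adamts9* against a median of 52.7% over all windows. A match is a description of letters and not a site, and a missing match says only that these letters are not in this window.

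*Adamts1*, *Adamts2* and *Adamts5* were higher in *Irf8*-OE, by 3.36-fold to 4.10-fold, and *Adamts6* and *Adamts9* were lower, by 2.27-fold and 2.20-fold. In each of the 5 genes the values of the 2 groups did not overlap. This was also so for all 1355 listed genes, and nothing is read from it. In a fit over all listed genes, 5 of the 5 lay past an adjusted p of 0.05 and a log2 difference of 1 in size, beside 99.1% of all listed genes. That outcome was set by the selection of the table on the same samples and is not evidence about the 5 genes. Of the 5, 3 were called higher and 2 lower, beside 58.1% and 41% of the listed genes. With the samples scaled to equal totals over the listed genes, 74.3% of the called genes were higher in place of 58.6%, and with DESeq2's own size factors 34.4% were. The size of the 5 genes' differences moved with this choice while their direction did not. With DESeq2's own size factors, estimated from the listed genes alone, the log2 differences were 1.09, 0.80 and 1.03 for *Adamts1*, *Adamts2* and *Adamts5* and -2.14 and -2.09 for *Adamts6* and *Adamts9*. With equal totals the first 3 were 2.67, 2.37 and 2.59.

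*Adamts1* encodes the protease of this group with the highest level per length in *Irf8*-OE. It lies at chr16:85793827-85803113 on the minus strand (ENSMUSG00000022893, GRCm38), in a gene of 9 exons and 5302 exonic bases. Its values were 64.1 and 51.8 normalized counts in the 2 controls, which rest on 57 and 54 reads. The *Irf8*-OE values were 253, 236 and 224 normalized counts, from 264, 253 and 223 reads. The lowest *Irf8*-OE sample stood 160 normalized counts above the highest control, while the 3 *Irf8*-OE samples lay close together. The means were 57.9 ± 8.66 (SD, n = 2) and 238 ± 14.6 (SD, n = 3), a difference of 2.02 ± 0.14 (SE) on the log2(normalized counts + 1) scale. Over the 6 pairs of 1 sample from each group the log2 difference ran from 1.79 to 2.27.

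*Adamts5*, the aggrecanase gene, is the nearest listed neighbour of *Adamts1*, 53.06 kb away on the same strand at chr16:85856173-85901828 (ENSMUSG00000022894), with 8 exons and 10791 exonic bases. It rested on the fewest reads of the 5 genes, with 11.2 and 18.2 normalized counts in the controls from 10 and 19 reads. The *Irf8*-OE samples held 50.8, 62.6 and 63.3 normalized counts from 53, 67 and 63 reads. Every *Irf8*-OE sample was above both controls, with a gap of 32.6 normalized counts. At so few reads the counting error is wide, and the exact Poisson 95% intervals of the controls were 5.39 to 20.7 and 11.0 to 28.5 normalized counts, whereas that of the lowest *Irf8*-OE sample was 38.1 to 66.4. The means were 14.7 ± 4.95 (SD, n = 2) and 58.9 ± 7.003 (SD, n = 3). The log2 difference was 1.96 ± 0.28 (SE), and its range over the 6 pairs, 1.43 to 2.39, was wider than that of *Adamts1*.

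The ratio of *Adamts1* to *Adamts5*, which scaling by 1 factor per sample cannot change, was 5.70 and 2.84 in the controls and 4.98, 3.78 and 3.54 in *Irf8*-OE. The 2 neighbours on chromosome 16 thus stood in overlapping ratios in both groups. The next listed genes on either side of this pair lie much farther off, *St3gal6* at 27269.6 kb and *Tiam1*, a Rac exchange factor that was lower in *Irf8*-OE with a log2 difference of -1.21, at 3885 kb.

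*Adamts2*, the procollagen N-proteinase gene, lies at chr11:50602084-50807573 on the plus strand (ENSMUSG00000036545) with 22 exons and 9336 exonic bases. It had 41.6 and 32.6 normalized counts in the controls from 37 and 34 reads. It had 131, 129 and 113 normalized counts in *Irf8*-OE from 137, 138 and 113 reads. The groups lay 71.9 normalized counts apart, and the third *Irf8*-OE sample was the lowest of its group. The means were 37.1 ± 6.33 (SD, n = 2) and 125 ± 9.66 (SD, n = 3), with a log2 difference of 1.73 ± 0.18 (SE) and a range of 1.43 to 1.98 over the 6 pairs.

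*Adamts9*, a proteoglycanase gene, had the highest level per length of the 5 in the controls. It lies at chr6:92772699-92943492 on the minus strand (ENSMUSG00000030022), with 40 exons and 15048 exonic bases. The controls held 428 and 364 normalized counts from 381 and 379 reads. The *Irf8*-OE samples held 174, 188 and 178 normalized counts from 182, 201 and 177 reads. Both controls were above every *Irf8*-OE sample, by at least 176 normalized counts, and the *Irf8*-OE samples differed by less than their counting error. The means were 396 ± 45.6 (SD, n = 2) and 179.96 ± 6.88 (SD, n = 3). The log2 difference was -1.13 ± 0.11 (SE), with a range of -1.29 to -0.95 over the 6 pairs. Of its exonic bases, 1381 (9.18%) overlap exons of *A730049H05Rik* and 424 (2.82%) overlap exons of *Gm15737* on the other strand. The sources used here do not give the strand setting of the counting, so reads from these bases cannot be told apart.

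*Adamts6*, the gene linked to microfibrils, was the most variable of the 5 in *Irf8*-OE. It lies at chr13:104287835-104496695 on the plus strand (ENSMUSG00000046169), with 24 exons and 7798 exonic bases. It had 137 and 178 normalized counts in the controls from 122 and 185 reads. It had 51.8, 69.1 and 87.4 normalized counts in *Irf8*-OE from 54, 74 and 87 reads. The third *Irf8*-OE sample came nearest to the controls, and 49.7 normalized counts remained between the groups. The means were 157 ± 28.6 (SD, n = 2) and 69.4 ± 17.8 (SD, n = 3), a log2 difference of -1.19 ± 0.25 (SE) with a range of -1.76 to -0.64 over the 6 pairs. Without the first *Irf8*-OE sample the log2 difference was -0.996 and no longer past the threshold of size. With equal totals over the listed genes *Adamts6* and *Adamts9* stayed lower but missed that threshold, with log2 differences of -0.54 and -0.47.

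**Figure D1:**
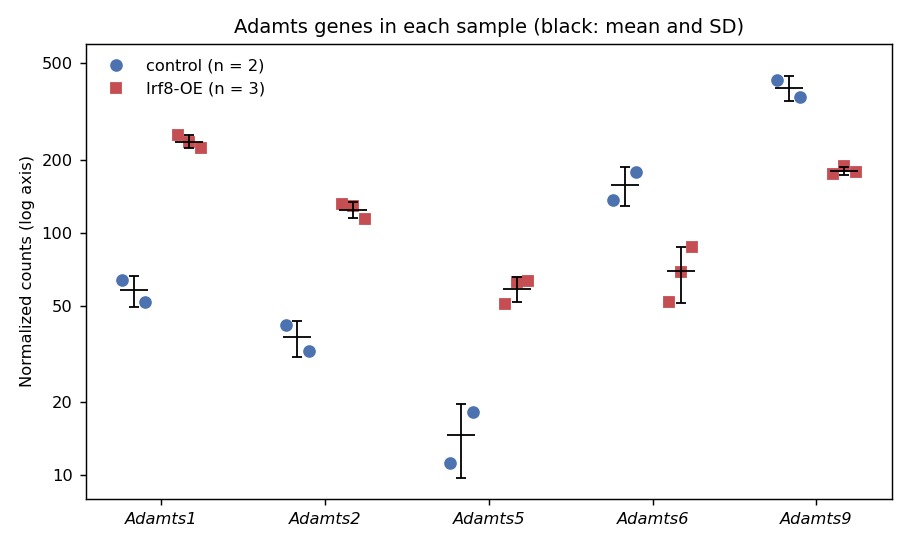
Normalized counts (log axis) of the 5 *Adamts* genes in each control (circles, n = 2) and *Irf8*-OE sample (squares, n = 3), with black lines for the mean and SD. *Adamts1*, *Adamts2* and *Adamts5* lie higher in every *Irf8*-OE sample, *Adamts6* and *Adamts9* lie lower, and the *Irf8*-OE values of *Adamts6* spread from 51.8 to 87.4.

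The spread between samples was set beside the spread that counting alone gives. For *Adamts1* in *Irf8*-OE the coefficient of variation was 6.14%, against 6.37% from counting, and for *Adamts2* it was 7.75% against 8.80%. *Adamts5* behaved alike, at 11.9% against 12.8%. *Adamts9* varied by 3.82% where counting gives 7.32%. *Adamts6* differed from these, with 25.7% against 11.8% in *Irf8*-OE and 18.2% against 8.10% in the controls. The controls of *Adamts9* also varied more than counting gives, by 11.5% against 5.15%. They held 381 and 379 reads, at 1.12 and 0.960 normalized counts per read. All listed genes together held 901597 and 1062127 reads in these controls, so the near-equal reads were unequal parts of those totals. The controls of *Adamts1* (14.9% against 13.5%) and *Adamts2* (17.1% against 16.8%) lay nearer to counting. An SD of 2 controls or 3 *Irf8*-OE samples is itself uncertain. For *Adamts5*, with the fewest reads, the controls varied by 33.6% against 26.3% from counting.

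Levels of different genes were compared per kilobase of exons, since longer transcripts yield more reads. In the controls the order of the levels was *Adamts9* with 26.3 ± 3.03 normalized counts per kb, *Adamts6* with 20.2 ± 3.66, *Adamts1* with 10.9 ± 1.63, *Adamts2* with 3.97 ± 0.678 and *Adamts5* with 1.37 ± 0.458 (SD, n = 2). No neighbours in this order overlapped between samples, but counting error was not part of this comparison. The lowest *Adamts9* value, 24.2, lay close to the highest *Adamts6* value, 22.8. In *Irf8*-OE the order was *Adamts1* with 44.8 ± 2.75 normalized counts per kb, *Adamts2* with 13.3 ± 1.03, *Adamts9* with 12.0 ± 0.457, *Adamts6* with 8.90 ± 2.28 and *Adamts5* with 5.46 ± 0.649 (SD, n = 3). Here *Adamts2*, at 12.2 to 14.1, and *Adamts9*, at 11.6 to 12.5, overlapped and did not differ beyond their spread. *Adamts1* thus moved from the third place to the first, and *Adamts5* was lowest in both groups.

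The composition of the summed level of the 5 genes differed between groups. Per kilobase *Adamts9* made up 44.7% and 39.0% of the sum in the controls and 13.7%, 14.6% and 14.2% in *Irf8*-OE. *Adamts1* made up 19.0% and 15.8% per kilobase in the controls and 56.3%, 52.1% and 50.7% in *Irf8*-OE. *Adamts6* made up 27.6% and 36.8% per kilobase in the controls. The largest share per length was thus that of *Adamts9* in both controls and that of *Adamts1* in the 3 *Irf8*-OE samples. In control 2 *Adamts6* came close to *Adamts9*, and counting error and the exon overlap of *Adamts9* were not taken into account. The ratio of normalized counts of *Adamts1* to *Adamts9*, which scaling by 1 factor per sample cannot change, was 0.150 and 0.142 in the controls and 1.45, 1.26 and 1.26 in *Irf8*-OE. The ratio of *Adamts9* to *Adamts6* was 3.12 and 2.05 in the controls and 3.37, 2.72 and 2.03 in *Irf8*-OE, which overlapped.

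The sum itself had no direction that held across scalings. With the authors' size factors it was 682 and 644 normalized counts in the controls and 661, 684 and 666 in *Irf8*-OE, which overlapped. With equal totals over the listed genes the controls were lower, at 534 and 501 against 821, 843 and 813. With DESeq2's factors from the listed genes they were higher, at 1024 and 974 against 517, 524 and 526, and with edgeR's they were also higher, at 762.3 and 755 against 616, 632 and 609.9. Per kilobase and with the authors' size factors the sum was 63.6 and 61.9 in the controls and 84.7, 85.5 and 83.3 in *Irf8*-OE. The sum per kilobase was not recomputed under the other scalings, so no direction is read from it.

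**Figure D2:**
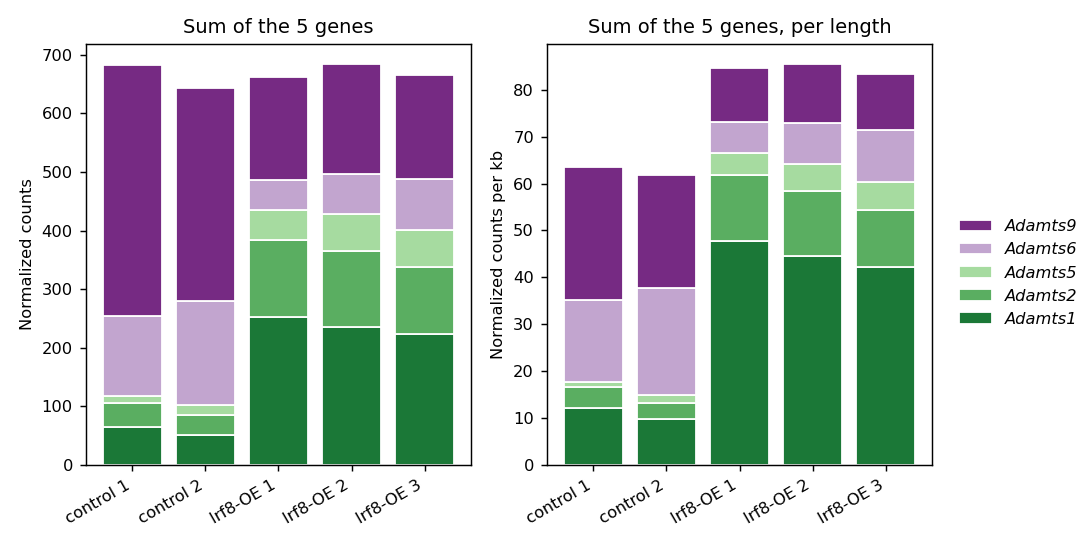
Stacked bars of the 5 *Adamts* genes in each sample, as normalized counts (left) and as normalized counts per kb of exons (right). Both use the authors' size factors, with which the left bars reach 644 to 684 in both groups. On the right *Adamts9* makes up 39.0% or more of each control bar and 14.6% or less of each *Irf8*-OE bar.

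The other genes of the pathway were taken from lists of substrates, inhibitors and partners of ADAMTS proteases, which were drawn up with earlier results of these data known. Of 60 such genes 13 were in the authors' table, and 13 of these 13 were called higher in *Irf8*-OE and 0 lower, beside the 58.1% of listed genes called higher. With size factors estimated from the listed genes alone, 9 of the 13 were called higher with edgeR and 2 with DESeq2, and 0 lower with either. Of all 1355 listed genes, 592 were called higher with edgeR and 293 with DESeq2. The median log2 difference of the 13 was 1.70. That of all listed genes was 1.14 with signs kept, which 558 lower genes pull down, and 1.73 in absolute size. The 13 thus did not differ more in size than the listed genes did at their median. The 47 other genes of these lists were not analysed here, and all 13 had been selected on the same contrast.

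The procollagens, which are the substrates of *Adamts2*, and their processing enzymes gave 7 listed genes of 14, all 7 higher. *Col1a1*, a chain of type I collagen, had means of 318 and 2794 normalized counts in control and *Irf8*-OE, and *Col3a1*, the chain of type III collagen, had 71.7 and 529.8. The log2 differences were 3.13 and 2.87. *Col1a2* (1.94), *Col5a1* (1.70) and *Col5a2* (1.15), also chains of fibrillar collagens, were higher as well. So were *Pcolce*, an enhancer of the C-proteinase that trims the other end of procollagen, by 1.38 and *Lox*, the oxidase that crosslinks collagen, by 1.07 on the log2 scale.

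Among 12 genes for inhibition, clearance and activation, 2 were listed and both were higher. *Timp3*, an inhibitor of aggrecanases, had means of 566 ± 41.6 (SD, n = 2) and 1364 ± 148 (SD, n = 3) normalized counts, a log2 difference of 1.27. *Timp1*, an inhibitor chiefly of matrix metalloproteinases, had 889 ± 83.8 (SD, n = 2) and 1958 ± 130 (SD, n = 3), a log2 difference of 1.14. Of 11 microfibril partners 3 were listed and were higher, namely *Fbn1* for fibrillin (1.82), *Ltbp1* for a protein that binds latent TGF-beta (1.90) and *Thbs2* for a thrombospondin (1.58). These partners were higher in *Irf8*-OE while *Adamts6* was lower. Of 16 proteoglycan genes 1 was listed, *Fmod* for the small proteoglycan fibromodulin, with 3.04 ± 1.12 (SD, n = 2) and 16.4 ± 6.58 (SD, n = 3) normalized counts. Its control values, 2.25 and 3.84, lay near a floor of 3 reads, so the size of its difference is uncertain. Of 7 genes for ADAMTS-like proteins, which lack the protease domain, 0 were listed, and of the 19 genes of the ADAMTS family 5 were, those described here.

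**Figure D3:**
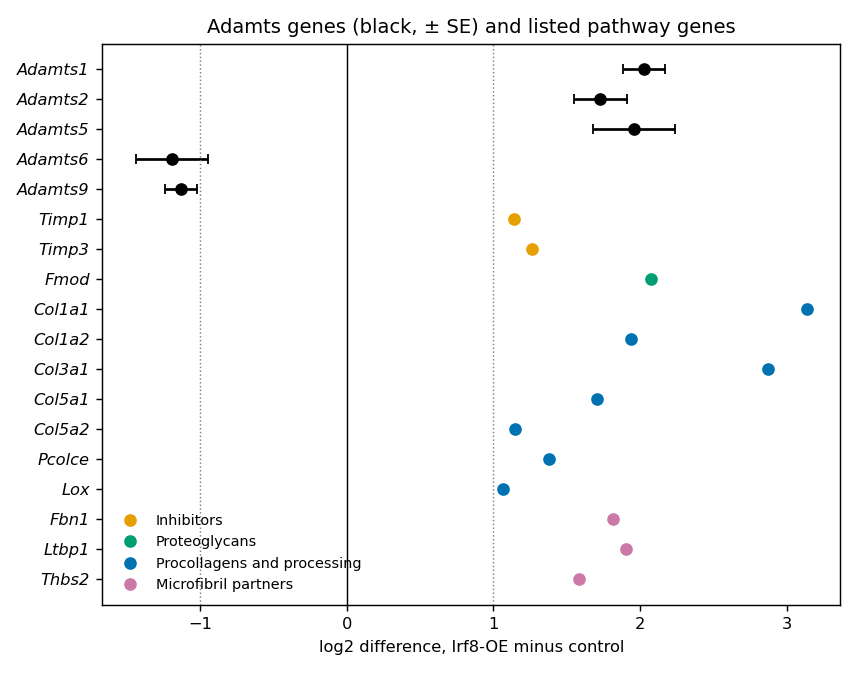
Log2 difference of *Irf8*-OE minus control on the log2(normalized counts + 1) scale for the 5 *Adamts* genes (black, ± SE) and for the 13 listed genes of the pathway lists, coloured by list, with dotted lines at a log2 difference of 1 in either direction. All 13 pathway genes lie to the right, from *Lox* at 1.07 to *Col1a1* at 3.13, whereas *Adamts6* and *Adamts9* lie to the left.

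Markers of cell types that a marrow culture can hold moved between the same groups. Of all listed genes 58.8% were higher in *Irf8*-OE and 41.2% lower, beside which the counts below stand, and every listed marker had been selected on the same contrast. In bulk RNA, fewer cells of a type and less RNA per cell cannot be told apart. Of 19 stromal markers 10 were listed and all 10 were higher in *Irf8*-OE, and their summed level was 3177 to 3247 normalized counts in control samples against 12490 to 13628 in those with *Irf8*-OE. *Col1a1*, *Col1a2* and *Col3a1* are in this list and in that of the procollagens. Of 11 macrophage markers 5 were listed and higher, with sums of 4082 to 4263 and 21322 to 26066. Of 12 endothelial markers 3 were listed, of which *Tie1* was higher and *Pecam1* and *Erg* were lower, with sums of 2950 to 3032 and 1051 to 1138.

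Mast cell and basophil markers, 10 of 13 listed, were lower in 8 cases and higher in 2, with sums of 235801 to 240274 and 36718 to 40513 normalized counts. Among these *Cpa3*, a mast cell protease gene, was lower, and *Mcpt8* and *Prss34*, protease genes of basophils, were the 2 higher, beside the 58.8% of listed genes that were higher. The B lineage list had 7 of 10 listed, all higher, with sums of 262 to 315 and 4750 to 5542. The neutrophil list had 3 of 8 listed, 2 higher and 1 lower, with sums of 265 to 333 and 1243 to 1299. Most of the *Irf8*-OE sum was *Mpo*, with means of 10.8 in control and 996 in *Irf8*-OE. *Elane* was also higher, at 124 and 274, whereas *Ly6g* was lower, at 164 and 9.68. Of 12 markers of conventional dendritic cells 2 were listed, *Itgae* for CD103, which was higher, and *Cd24a*, which was lower, and the others were not analysed here, so the labelled cell type was not checked on them. No listed marker of these cell types was at 0 in every sample of a group. The part of each cell type in the levels of the 5 *Adamts* genes was not tested.

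The listed genes nearest in pattern to each of the 5 were found by the root mean square distance between log2 values centred over the 5 samples, among 1249 genes with a mean of at least 10 normalized counts. For *Adamts1* these were *Stab1* (0.0579), a scavenger receptor gene, *Tie1* (0.0623), a receptor gene of endothelium, and *Gem* (0.0658), a small GTPase gene. For *Adamts2* they were *Crispld2* (0.0293), *Oas3* (0.0725), an interferon-induced gene, and *Ly6c2* (0.0747), a gene of monocytes. *Adamts5* had more distant neighbours, *Sorcs1* (0.0854), *Marc1* (0.122) and *Col6a5* (0.125).

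For *Adamts6* the nearest were *Zbtb26* (0.0469), *Gab3* (0.0763) and *Gm5547* (0.0902), and for *Adamts9* they were *Chst15* (0.0491), which encodes a sulfotransferase of chondroitin sulfate, *A430078G23Rik* (0.0510) and *Ear6* (0.0565). Within the family *Adamts1* and *Adamts2* were the closest pair at 0.150, and *Adamts6* and *Adamts9* were 0.299 apart. *Adamts5* stood 0.344 from *Adamts1* and 0.373 from *Adamts2*. With 5 samples in 2 groups such a distance is set mainly by the size of the group difference, and it is given as a description.

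**Figure D4:**
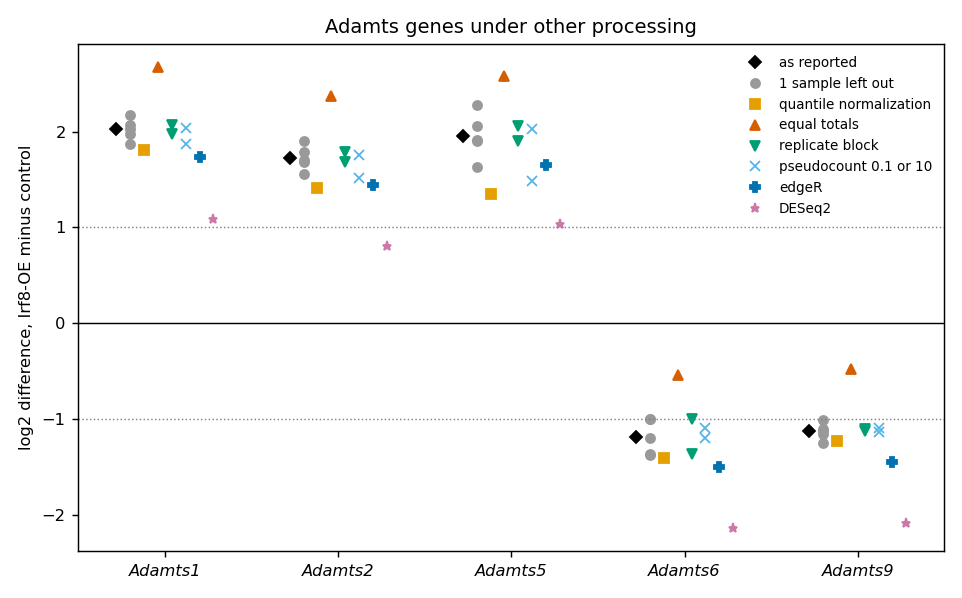
Log2 difference of *Irf8*-OE minus control of each *Adamts* gene as reported (diamonds) and under other processing, with dotted lines at a log2 difference of 1 in either direction. All values keep their side of 0, while equal totals bring *Adamts6* to -0.54 and *Adamts9* to -0.47 and DESeq2's own size factors bring *Adamts2* to 0.80.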

How the data were processed

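Poly-A RNA of 2 control and 3 *Irf8*-OE samples was read in paired-end mode by an Illumina NovaSeq. Submitters' processing notes name fastp, HISAT2 2.0.5, featureCounts 1.5.0-p3, DESeq2 1.20.0, edgeR 3.22.5 and mm10. The authors deposited normalized counts (signal values: reads over a size factor that is common to all genes of a sample) of 1355 genes passing their thresholds, with their own fold changes and p-values, which were not used.

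The members and lists were chosen with earlier results of these data known. The 5 genes were matched by gene name, and the genes named besides them are the listed genes of the pathway lists, the 3 nearest in pattern to each and the nearest listed neighbours. Further genes are named as checks of the labels (*Irf8* and sex-linked genes), as cell type markers and for exon overlap, and the ADAM genes were chosen after their values were seen. Reads were recovered as whole multiples of 1 step per sample within 0.01 of a whole number. A floor of 3 reads is 2.80 to 3.37 normalized counts, and intervals and floors cover counting error only. Differences were fitted over all listed genes by limma 3.58.1 in R 4.3.3, whose empirical Bayes step allowed a mean-variance trend. Values entered as log2(normalized counts + 1), which understates the change of low genes, and p-values were adjusted by Benjamini-Hochberg.

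Gene models came from GENCODE vM21 (GRCm38), in which all 5 genes have the deposited start and end, and promoter sequences from RefSeq (GRCm38.p6). Sample numbers were checked for pairing by the correlation of deviations from the group means. Alternatives were edgeR 4.0.16 and DESeq2 1.42.0 on recovered reads, quantile normalization, equal totals over the listed genes, pseudocounts of 0.1 and 10, no trend, a filter of 10 normalized counts, a replicate block and leaving out each sample. After seeing the data, both count tests were added without the third *Irf8*-OE sample and with the authors' size factors, and the sum of the 5 genes was recomputed under 3 other scalings.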

Additional observations from a re-analysis of the deposited data

How the results depend on the processing

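In each of 16 other settings all 5 *Adamts* genes kept their direction, and 75 of the 80 values stayed on the same side of both thresholds. Many of these settings could not have reversed a direction. The groups overlap in no listed gene, so another pseudocount or a left-out sample keeps the sign. The fit without trend has the same differences as reported, and each replicate block repeats the differences without its unpaired sample. The 5 others were *Adamts2* with DESeq2 on recovered reads (log2 difference 0.80), *Adamts6* (-0.54) and *Adamts9* (-0.47) with equal totals over the listed genes, which left 3 of the 5 genes called, and *Adamts6* with the replicate block from the sample descriptions and without the first *Irf8*-OE sample (-0.996 in both). Leaving out each sample in turn moved *Adamts6* between -1.37 and -0.996. The listed genes called were 1343 as reported, 851 with DESeq2 and 766 with DESeq2 without the third *Irf8*-OE sample, 1150 with edgeR, 1031 with quantile normalization and 1073 with equal totals. The called genes were higher in 58.6% of cases as reported, 49.4% with quantile normalization, 74.3% with equal totals, 51.5% with edgeR and 34.4% with DESeq2. These scalings were estimated on the listed genes alone and moved the median of all of them by -0.33, 0.65, -0.31 and -0.95 in that order, and with the authors' size factors edgeR called 1353 and DESeq2 1354. All 13 pathway genes stayed above 0 except 1 with DESeq2 without the third *Irf8*-OE sample. Of the 13, 9 were called higher with edgeR and 2 with DESeq2, beside 592 and 293 of all listed genes. The replicate block gave 1319 calls with the numbers of the sample titles and 1271 with those of the descriptions, each without the sample that has no partner. The descriptions number the controls 2 and 3, and no control numbered 1 is among the 5 samples. Same-numbered samples did not deviate together (r = 0.0275 and 0.0207 for titles, -0.0207 and 0.00893 for descriptions). With 2 controls their deviations mirror each other, so these values are not separate checks. The numbers were not taken to pair the samples. Where a control was left out, the lone control was assumed to vary like the other group. Depth limits *Adamts5* most, with 10 and 19 reads in the controls.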

Other observations

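Another family of metalloproteases, the ADAM genes, which encode membrane-bound relatives of the ADAMTS proteases, was looked at after the values were seen. The table held 4 of them and all 4 were higher in *Irf8*-OE, beside 58.8% of all listed genes. *Adam23*, a neuronal adhesion gene without protease activity, had 629 ± 56.5 normalized counts in the controls (SD, n = 2) and 1417 ± 11.7 in *Irf8*-OE (SD, n = 3), a log2 difference of 1.17. *Adam19*, a sheddase gene, went from 164 ± 44.6 to 456 ± 7.53 and had the largest log2 difference of the 4, 1.498. *Adam22* (1.07) and *Adam33* (1.40) were also higher. These genes had been selected on the same contrast, so no test is given.

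The nearest listed neighbour of *Adamts9* on chromosome 6 was *Prickle2*, a planar polarity gene 66.5 kb away. It averaged 136 (control) and 299 (*Irf8*-OE) normalized counts, a log2 difference of 1.13, which is the direction opposite to that of *Adamts9*. On chromosome 16, *Adamts1* and *Adamts5*, 53.06 kb apart, differed in the same direction.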
